A study of Mus musculus with 6 samples.

Results

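The genes described here encode the proteins of the mitochondrial ribosome. They were chosen by gene symbol, as Mrpl followed by a number for the large subunit and Mrps followed by a number, with or without 1 letter, for the small subunit. The count tables held 78 such genes, 49 of the large and 29 of the small subunit, among 24982 gene symbols. All 78 passed the filter on low counts, as did 12148 genes in all. RNA-seq counts came from 6 samples of the mouse glioma line KMWT1, grown with serum. YY1 siRNA samples 4, 5 and 6 had received a pool of siRNAs against YY1, and control siRNA samples 1, 2 and 3 a control siRNA. RNA of both groups was taken 48 hours after transfection. Whether a group's samples were separate cultures is not in the labels. The p-values therefore reflect sample-to-sample spread that could be technical.

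The mitochondrial ribosome translates the few mRNAs of the mitochondrial genome, which encode core subunits of the respiratory chain and ATP synthase. Its RNAs are made inside the mitochondrion, whereas its proteins are encoded in the nucleus, translated in the cytosol and imported. Many have a bacterial counterpart, and others are found only in mitochondria. YY1, the factor targeted here, is a zinc finger protein that binds near the start sites of many housekeeping genes, mitochondrial ones among them. Symbols do not fully match position in the assembled particle: in mammals the products of Mrps18a and Mrps30 sit in the large subunit, and that of Mrps36 is known as a component of the oxoglutarate dehydrogenase complex. Those 3 genes are counted here with the small subunit, as their symbols place them.

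The knockdown was partial. Yy1 stood at 81.2, 77.6 and 78.6 CPM (counts scaled to a common library size by TMM, a factor that evens out library composition) in YY1 siRNA samples 4, 5 and 6, against 127, 128 and 126 CPM in control siRNA samples 1, 2 and 3. Its log2 fold change was -0.68 (SE 0.064), with an adjusted p of 0.00154 in edgeR's quasi-likelihood test. In bulk RNA, fewer cells carrying a transcript and less of it per cell cannot be told apart. The fewest counts in genes were 15738457, in YY1 siRNA sample 6, and the most 20644057, in control siRNA sample 1. YY1 siRNA sample 6 stood apart from the other 5 on the first principal component of all genes, which held 44.2% of the variance, and its table alone is not marked as combined. Of the markers of a neural or glioma cell, Vim, Nes, Sox2 and Cd44 were abundant, while Olig2 had 0 counts in every sample and Gfap at most 2. The neuronal markers Rbfox3, Snap25 and Syt1, the oligodendrocyte markers Mbp and Mog and the microglial markers Aif1, Cx3cr1 and P2ry12 averaged below 1 CPM in both groups. Of the endothelial markers, Pecam1 lay below 1 CPM and Cldn5 at 0, but Cdh5 averaged 47.4 CPM in YY1 siRNA samples and 53.2 CPM in control siRNA samples.

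No mitochondrial ribosomal protein gene passed the test over all genes. The smallest adjusted p was 0.317 among the 49 large subunit genes and 0.261 among the 29 of the small subunit, and 0.00823% of all genes tested passed, which is Yy1 alone. At an unadjusted p under 0.05 there were 6 large subunit genes, all higher with YY1 siRNA, and 10 small subunit genes, 8 higher and 2 lower. Among all genes tested, 5.38% were higher and 5.46% lower at that p. In both directions together these are 12.2% of the large subunit genes and 34.5% of the small subunit genes, against 10.8% of all genes tested. DESeq2 passed 0 of the 78 after adjustment and placed 12 under an unadjusted p of 0.05, as it did 5.53% of the 17046 genes it tested. It was run without the filter on low counts, so that share rests on a wider set of genes than the shares above. None of the 78 had a fitted change of 1.5-fold or more.

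**Figure D1:**
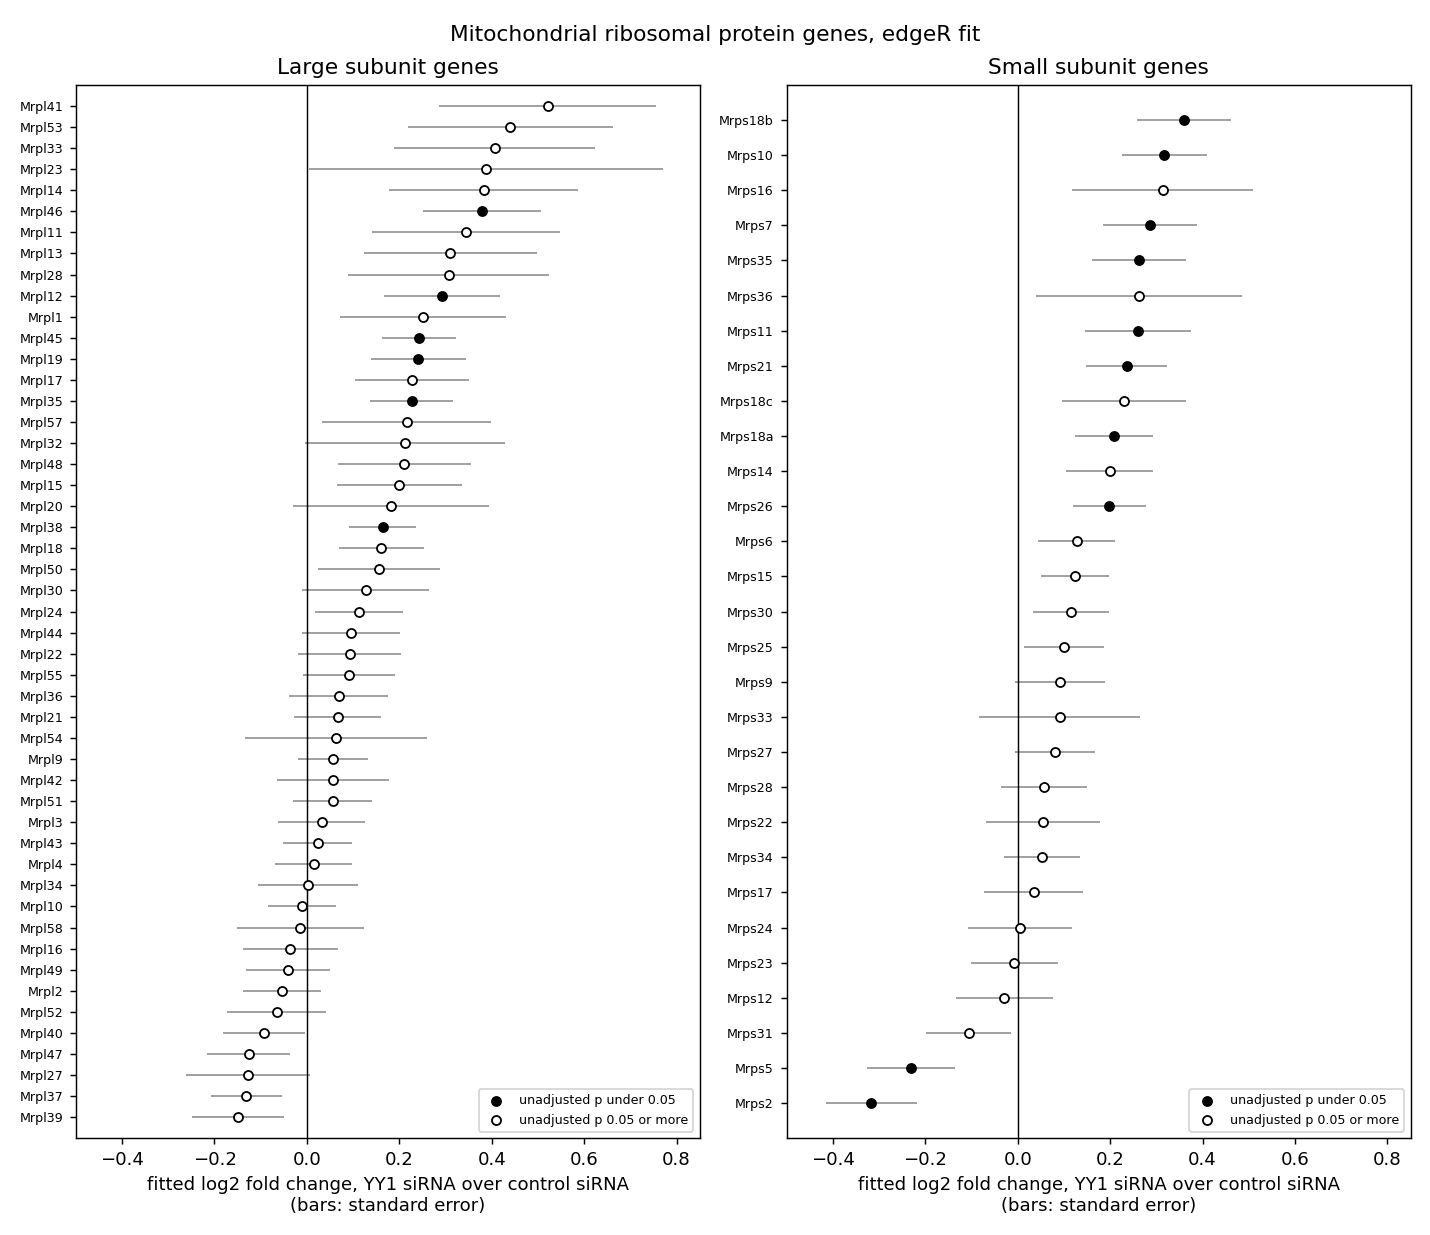
Fitted log2 fold change of each mitochondrial ribosomal protein gene, YY1 siRNA over control siRNA (points; bars are the standard error), large subunit on the left and small subunit on the right. Filled points mark the 6 large and 10 small subunit genes with an unadjusted p under 0.05, and most points of both subunits lie right of 0.

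Most members had a fitted change above 0, of similar size in both subunits. In the large subunit 38 of 49 lay above 0, with a median log2 fold change of 0.11, and in the small subunit 24 of 29, with a median of 0.12. Over all genes tested, 50.2% lay above 0 and the median was 0.00070. Fitted changes ran from -0.15 in Mrpl39 to 0.52 in Mrpl41 in the large subunit, and from -0.32 in Mrps2 to 0.36 in Mrps18b in the small subunit. The libraries of the groups did not overlap in 5 large subunit genes, 4 higher and 1 lower, and in 8 small subunit genes, 7 higher and 1 lower. Over all genes, the groups did not overlap in 7.36% with higher and 8.91% with lower values in YY1 siRNA samples.

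In the large subunit most of this upward shift lay in YY1 siRNA sample 6, and in the small subunit a part of it. The level of a subunit in a library is the median, over its genes, of log2 CPM minus the gene's mean over the 6 libraries. For the large subunit it was -0.035, -0.084 and 0.26 in YY1 siRNA samples 4, 5 and 6, against -0.098, -0.083 and 0.048 in control siRNA samples 1, 2 and 3. For the small subunit it was 0.022, -0.064 and 0.20 in YY1 siRNA samples 4, 5 and 6, against -0.12, -0.035 and 0.012 in control siRNA samples 1, 2 and 3. In both subunits sample 6 was highest by a wide margin, control siRNA sample 1 was lowest, and the groups overlapped. Sample 6 held the highest value of the 6 libraries for 53 of the 78 genes, and for 27.1% of all genes tested. Without sample 6 the median log2 fold change was 0.015 in the large subunit, with 28 of 49 genes above 0, and 0.058 in the small subunit, with 18 of 29 above 0. The counts at an unadjusted p under 0.05 were then 2 higher and 3 lower in the large subunit, and 3 higher and 3 lower in the small subunit, against 8.20% of all genes in both directions.

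**Figure D2:**
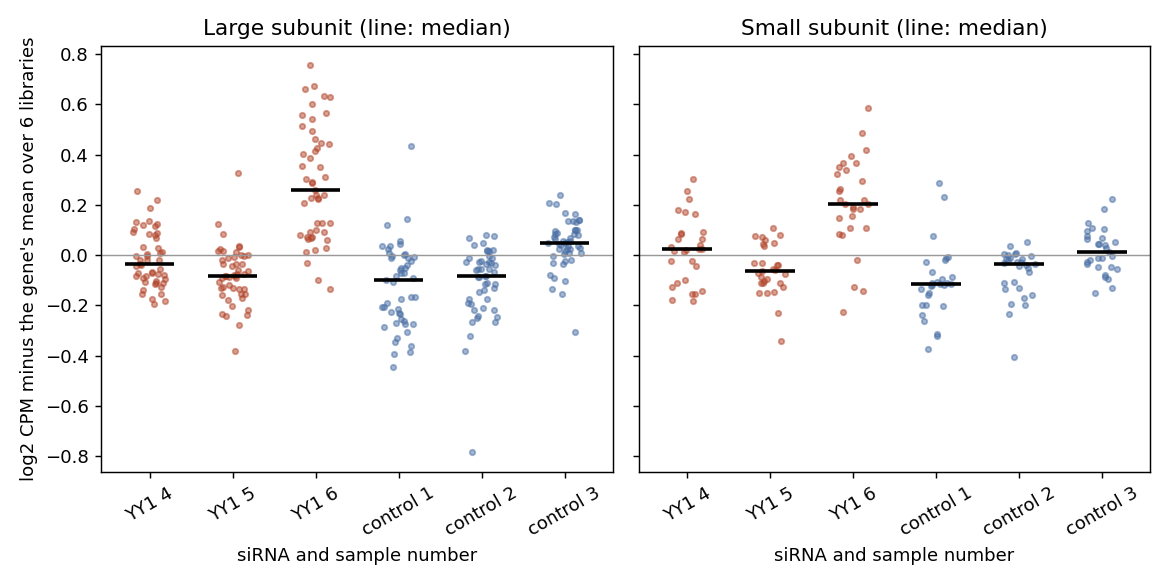
Level of each mitochondrial ribosomal protein gene in each library (points; log2 CPM minus the gene's mean over the 6 libraries), with YY1 siRNA samples in red, control siRNA samples in blue and the subunit's median as a line. The medians of YY1 siRNA sample 6, 0.26 for the large and 0.20 for the small subunit, lie above those of the other 5 libraries.

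Other properties of sample 6 are given here beside this shift, and their part in it was not tested. Mitochondrial ribosomal protein transcripts are short, with a median annotated length of 1224 bases against 2694 for all genes tested, and short transcripts as a class were higher in sample 6. The 1051 tested genes with transcripts under 1000 bases had a median log2 CPM 0.286 above the mean of the other 5 libraries in sample 6, and the 8103 genes of 2000 bases or more lay at -0.0526. The 30 members under 1000 bases lay at 0.284 and the 20 members of 2000 bases or more at 0.231. In the large subunit these medians were alike, at 0.342 and 0.341. In the small subunit they were 0.258 and 0.126. As a description, Pearson's r between this deviation and log2 length was -0.195 across the 78 members and -0.335 across 12058 genes, all values coming from the same 6 libraries. When the fit held offsets for length and GC content in each library, the large subunit level was -0.032, -0.048 and 0.10 in YY1 siRNA samples 4, 5 and 6, against -0.055, -0.047 and 0.040 in control siRNA samples 1, 2 and 3. The small subunit level was then 0.049, -0.047 and 0.049 in YY1 siRNA samples 4, 5 and 6, against -0.034, 0.00043 and -0.0096 in control siRNA samples 1, 2 and 3. In the large subunit sample 6 stood less far above the other libraries than without the offsets. In the small subunit it no longer stood apart, as samples 4 and 6 were both at 0.049. The groups still overlapped in both subunits. The median log2 fold change was 0.044 in the large and 0.056 in the small subunit. Counts that fell in no gene made up 7.87%, 10.7% and 11.3% in YY1 siRNA samples 4, 5 and 6, against 7.99%, 8.64% and 9.03% in control siRNA samples 1, 2 and 3. The part of this share in the result was not tested.

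As a share of counts in genes, large subunit genes took 0.197%, 0.195% and 0.252% in YY1 siRNA samples 4, 5 and 6, against 0.181%, 0.187% and 0.211% in control siRNA samples 1, 2 and 3. Small subunit genes took 0.0894%, 0.0857% and 0.101% in YY1 siRNA samples 4, 5 and 6, against 0.0821%, 0.0847% and 0.0900% in control siRNA samples 1, 2 and 3. The ratio of large to small subunit counts was 2.20, 2.27 and 2.50 in YY1 siRNA samples, against 2.20, 2.21 and 2.35 in control siRNA samples. Sample 6 was highest in all 3 of these measures, and the groups overlapped in each.

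Some members had an unadjusted p under 0.05 whichever sample was left out. Mrpl45, Mrps10, Mrps18b and Mrps2 were the 4 members with an unadjusted p under 0.05 in the full fit and also without each of the 6 samples in turn, a criterion that 3.19% of all genes tested met. None of these 4 passed after adjustment under any setting run. The lowest adjusted p in those settings was 0.0685, for Mrps10 with edgeR run without the filter on low counts.

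**Figure D3:**
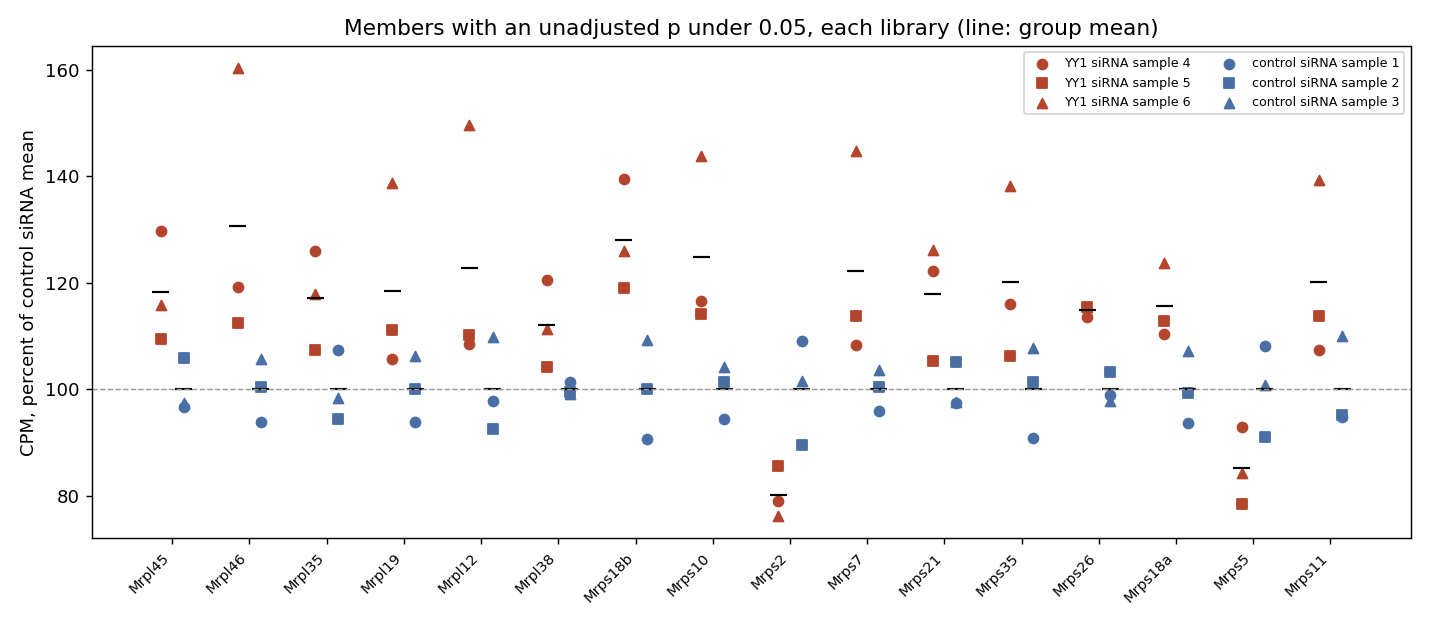
CPM of the 16 members with an unadjusted p under 0.05 in each library, as a percent of the control siRNA mean, with YY1 siRNA samples in red on the left of each pair, control siRNA samples in blue on the right and group means as lines. Mrps2 and Mrps5 have lower means with YY1 siRNA, the other 14 higher. In Mrpl46, Mrpl12, Mrpl19, Mrps10, Mrps7, Mrps11 and Mrps35 sample 6 lies well above samples 4 and 5.

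Mrps18b had the smallest p of the 78. It is 1 of 3 mammalian paralogs related to the bacterial protein S18, and its locus is chr17:35910379-35916389, minus strand (mm10). Its levels were 19.2, 16.4 and 17.4 CPM in YY1 siRNA samples 4, 5 and 6, against 12.5, 13.8 and 15.1 CPM in control siRNA samples 1, 2 and 3. All 3 YY1 siRNA values lay above all 3 control values, and sample 4 was the highest. The log2 fold change was 0.36 (SE 0.102, edgeR unadjusted p 0.0039, adjusted p 0.261), and 0.37 without sample 6. Its counts are uncertain, since Gm16279 overlaps it on the other strand and Gm13552, elsewhere in the genome, matches 417 of its bases at 99.8% identity.

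The paralogs Mrps18a and Mrps18c had fitted changes in the same direction. Mrps18a stood at 30.7, 31.4 and 34.4 CPM in YY1 siRNA samples 4, 5 and 6, against 26.0, 27.6 and 29.8 CPM in control siRNA samples 1, 2 and 3, with no overlap (log2 fold change 0.21, edgeR adjusted p 0.415, SE 0.084). With length and GC offsets that value was 0.11. Mrps18c stood at 43.1, 39.6 and 56.8 CPM in YY1 siRNA samples 4, 5 and 6, against 38.0, 36.1 and 44.4 CPM in control siRNA samples 1, 2 and 3. There the groups overlapped and sample 6 was the highest, and the log2 fold change of 0.23 (edgeR adjusted p 0.537, SE 0.135) was 0.058 without that sample and 0.034 with the offsets.

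Mrps10, the counterpart of bacterial S10, maps to chr17:47368887-47381417, plus strand. It stood at 52.6, 51.5 and 64.9 CPM in YY1 siRNA samples 4, 5 and 6, against 42.6, 45.8 and 47.0 CPM in control siRNA samples 1, 2 and 3. The groups did not overlap and sample 6 was the highest (log2 fold change 0.32, edgeR adjusted p 0.265, SE 0.092). Without sample 6 the log2 fold change was 0.20. A copy elsewhere in the genome, AC154457.3, matches 558 of its bases at 97.8% identity.

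Mrps2, the counterpart of bacterial S2, was lower in all 3 YY1 siRNA samples. It maps to chr2:28468066-28471178, plus strand, and the annotation holds no overlapping gene and no close copy. Its levels were 15.2, 16.4 and 14.6 CPM in YY1 siRNA samples 4, 5 and 6, against 20.9, 17.2 and 19.5 CPM in control siRNA samples 1, 2 and 3. The log2 fold change was -0.32 (edgeR adjusted p 0.296, SE 0.098) and -0.29 without sample 6. Mrps5, the counterpart of the bacterial protein S5 that bears on decoding accuracy, stood at 22.4, 18.9 and 20.3 CPM in YY1 siRNA samples 4, 5 and 6, against 26.1, 22.0 and 24.3 CPM in control siRNA samples 1, 2 and 3. Sample 4 overlapped the control range, and the log2 fold change was -0.23 (edgeR adjusted p 0.420, SE 0.096). Gm13328 matches 1019 of the bases of Mrps5 at 98.4% identity. These were the 2 members lower at an unadjusted p under 0.05.

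The remaining small subunit genes at that p all had higher YY1 siRNA means. Mrps7, the counterpart of S7 in the head of the subunit, stood at 43.8, 46.0 and 58.5 CPM in YY1 siRNA samples 4, 5 and 6, against 38.8, 40.6 and 41.9 CPM in control siRNA samples 1, 2 and 3. Its groups did not overlap, and its log2 fold change of 0.29 (edgeR adjusted p 0.362, SE 0.102) was 0.14 without sample 6. Mrps26, found only in mitochondria, had the narrowest spread, with 22.0, 22.4 and 22.4 CPM in YY1 siRNA samples 4, 5 and 6, against 19.2, 20.0 and 19.0 CPM in control siRNA samples 1, 2 and 3. Its groups did not overlap (log2 fold change 0.20, edgeR adjusted p 0.407, SE 0.079), and the value without sample 6 was 0.19. Mrps21, the counterpart of bacterial S21, averaged 33.4 ± 3.12 CPM in YY1 siRNA samples and 28.4 ± 1.23 CPM in control siRNA samples (SD, n = 3 each). Mrps35 averaged 39.2 ± 5.34 CPM in YY1 siRNA samples and 32.6 ± 2.78 CPM in control siRNA samples, and Mrps11 averaged 15.5 ± 2.18 CPM in YY1 siRNA samples and 12.9 ± 1.13 CPM in control siRNA samples. The groups overlapped in Mrps35 and Mrps11 and did not in Mrps21, whose log2 fold change of 0.24 was 0.078 with length and GC offsets. Copies elsewhere match 433 bases of Mrps26 (Gm9063, 96.3% identity) and 264 bases of Mrps21 (Gm6181, 97.3% identity). Mrps7 and Mrps26 also overlap genes on the other strand.

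In the large subunit, Mrpl45 had the smallest p. Its product lies at the exit of the nascent chain tunnel, where the ribosome meets the inner membrane. The gene maps to chr11:97315716-97329920, plus strand, and is overlapped on the other strand by Gm11594. It stood at 86.7, 73.1 and 77.4 CPM in YY1 siRNA samples 4, 5 and 6, against 64.6, 70.8 and 65.1 CPM in control siRNA samples 1, 2 and 3. The groups did not overlap and sample 4 was the highest (log2 fold change 0.24, edgeR adjusted p 0.317, SE 0.079). Without sample 6 the value was 0.25.

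Mrpl35, Mrpl38 and Mrpl46 also showed no overlap. Mrpl35, the counterpart of bacterial L35, stood at 29.6, 25.2 and 27.7 CPM in YY1 siRNA samples 4, 5 and 6, against 25.2, 22.2 and 23.1 CPM in control siRNA samples 1, 2 and 3 (log2 fold change 0.23, edgeR adjusted p 0.401, SE 0.089). The lowest YY1 siRNA value and the highest control value nearly met. Mrpl38 and Mrpl46 encode proteins of the central protuberance, a projection of the large subunit found in part only in mitochondria. Mrpl38 stood at 76.1, 65.8 and 70.2 CPM in YY1 siRNA samples 4, 5 and 6, against 64.0, 62.8 and 62.6 CPM in control siRNA samples 1, 2 and 3. Mrpl46 stood at 17.0, 16.0 and 22.8 CPM in YY1 siRNA samples 4, 5 and 6, against 13.4, 14.3 and 15.1 CPM in control siRNA samples 1, 2 and 3. Its log2 fold change of 0.38 (edgeR adjusted p 0.341, SE 0.128) was 0.21 without sample 6.

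Mrpl12 and Mrpl19 completed the 6 large subunit genes at an unadjusted p under 0.05. Mrpl12, whose product forms the factor-binding stalk and has been described as a partner of the mitochondrial RNA polymerase, stood at 54.8, 55.7 and 75.7 CPM in YY1 siRNA samples 4, 5 and 6, against 49.5, 46.8 and 55.5 CPM in control siRNA samples 1, 2 and 3. Its log2 fold change was 0.29 (edgeR adjusted p 0.444, SE 0.125) and 0.12 without sample 6. Mrpl19, the counterpart of bacterial L19, averaged 33.4 ± 4.97 CPM in YY1 siRNA samples and 28.2 ± 1.74 CPM in control siRNA samples, and its log2 fold change of 0.24 was 0.11 without sample 6. Of the 16 members at an unadjusted p under 0.05, 7 kept such a p and all 16 kept their direction without that sample. The share of all genes that did so was not counted, so these numbers cannot be placed against it. The 16 were chosen with a fit that shares the other samples, so the kept direction is not independent support.

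The largest fitted changes of the large subunit did not belong to the genes with the smallest p. Mrpl41 stood at 21.9, 24.9 and 39.7 CPM in YY1 siRNA samples 4, 5 and 6, against 17.8, 18.0 and 24.1 CPM in control siRNA samples 1, 2 and 3. A copy elsewhere in the genome, Gm6434, matches 372 of the bases of Mrpl41 at 97.8% identity. Mrpl53 stood at 56.1, 68.1 and 98.8 CPM in YY1 siRNA samples 4, 5 and 6, against 45.8, 51.9 and 66.3 CPM in control siRNA samples 1, 2 and 3. In both genes sample 6 was far above the rest and the groups overlapped. The log2 fold changes of 0.52 (edgeR adjusted p 0.473, SE 0.235) and 0.44 (edgeR adjusted p 0.505, SE 0.222) were 0.22 and 0.18 without that sample. The lowest fitted changes of the large subunit belonged to Mrpl39, at -0.15 (SE 0.0996), and Mrpl37, at -0.13 (SE 0.077), both found only in mitochondria. Mrpl37 stood at 25.4, 24.4 and 24.0 CPM in YY1 siRNA samples 4, 5 and 6, against 28.0, 26.5 and 26.5 CPM in control siRNA samples 1, 2 and 3, and was the 1 large subunit gene with all YY1 siRNA values below all control values (edgeR adjusted p 0.529).

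**Figure D4:**
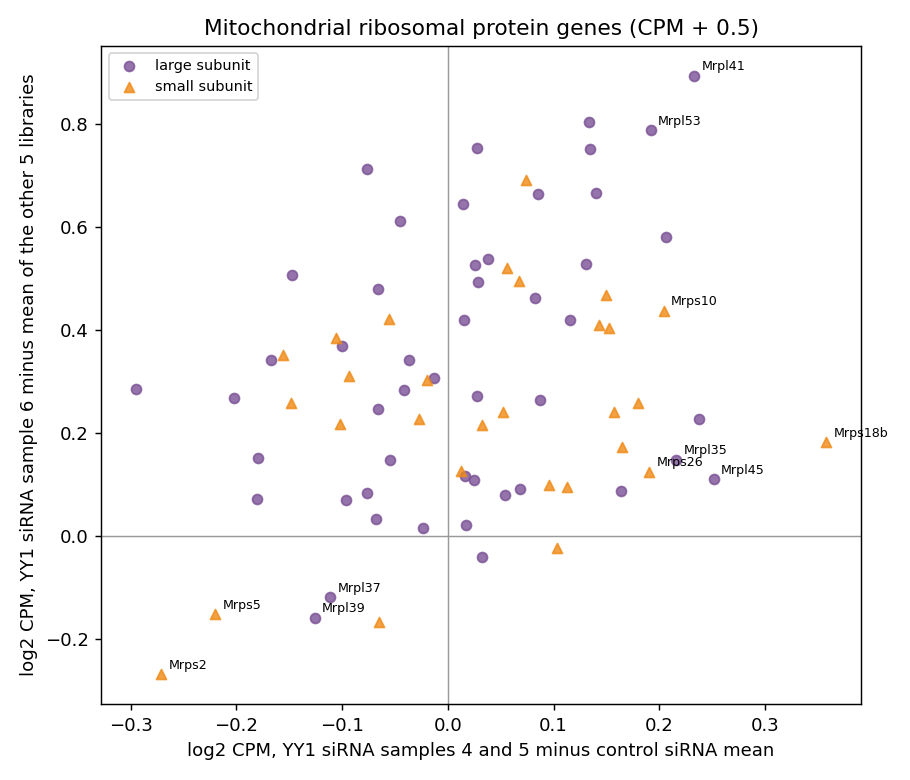
For each member, log2 CPM in YY1 siRNA sample 6 minus the mean of the other 5 libraries (vertical) against the mean of YY1 siRNA samples 4 and 5 minus the control siRNA mean (horizontal), with 0.5 added to each CPM, large subunit as circles and small subunit as triangles. Of the 78 members, 71 lie above 0 in sample 6, while samples 4 and 5 spread to both sides of the control mean. Mrps18b lies farthest right and Mrps2 lowest. Among all tested genes with an annotated length, not drawn here, 5779 of 12058 were above 0 in sample 6.

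Levels differed far more between members than between groups. Per kilobase of transcript (the median length of a gene's annotated coding transcripts), large subunit genes ranged from 0.930 to 312 CPM per kb over the 6 libraries, with a median of 23.8, and small subunit genes from 4.36 to 79.3, with a median of 22.9. Mrpl33, the counterpart of bacterial L33, was the highest at 355 ± 111 CPM per kb in YY1 siRNA samples and 268 ± 43.3 in control siRNA samples (SD, n = 3 each). Mrpl30 (YY1 siRNA 165 ± 36.9, control siRNA 151 ± 6.06) and Mrpl14 (YY1 siRNA 176 ± 50.8, control siRNA 135 ± 21.7) followed, and their order was within the spread between libraries. In the small subunit, Mrps6 (YY1 siRNA 82.8 ± 8.95, control siRNA 75.7 ± 2.55), Mrps21 (YY1 siRNA 74.9 ± 6.99, control siRNA 63.5 ± 2.76) and Mrps18c (YY1 siRNA 72.9 ± 14.3, control siRNA 62.0 ± 6.82) were highest, and they too lay within their spread of each other in YY1 siRNA samples.

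At the low end, Mrpl23 had 12, 15 and 12 counts in YY1 siRNA samples 4, 5 and 6, against 18, 6 and 9 in control siRNA samples 1, 2 and 3. The pseudogene Mrpl23-ps1 is identical to 507 of its bases, so reads from either may not have been told apart and its true level is uncertain. Mrps36 had 64, 42 and 62 counts in YY1 siRNA samples 4, 5 and 6, against 59, 41 and 56 in control siRNA samples 1, 2 and 3, and Mrps36-ps2 matches 309 of its bases at 99.0% identity. Mrpl57 (5.16 ± 1.18 CPM per kb in YY1 siRNA samples and 4.42 ± 0.879 in control siRNA samples), Mrpl47 (YY1 siRNA 5.60 ± 0.429, control siRNA 6.10 ± 0.333), Mrps25 (YY1 siRNA 4.51 ± 0.385, control siRNA 4.20 ± 0.163) and Mrps26 (YY1 siRNA 5.21 ± 0.0510, control siRNA 4.54 ± 0.130) were the other genes at this end. In all, 18 members had a copy elsewhere that matched at least 250 bases at 95% identity or more, and 42 overlapped another annotated gene, 36 of them 1 on the other strand. Whether counting used strand is not given here, so reads of such pairs may not have been told apart.

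The motif bound by YY1, searched as AANATGGCG on both strands, was found near the start of 11 of the 69 members that had a promoter window in RefSeq (GRCm38.p6, 250 bases before to 50 bases after a start). That is 15.9% of the members, against 6.16% of the 9576 tested genes with a window and 2.76% of all 27025 genes with a window. The 11 sites are shown because YY1 is the factor that was lowered. Each is given on the strand of the gene with 30 bases around it, 5′ to 3′, and capitals mark the motif or its reverse complement.

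Mrpl35, chr6:71823743-71823772, minus strand: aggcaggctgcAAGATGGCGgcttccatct
Mrpl37, chr4:107066822-107066851, minus strand: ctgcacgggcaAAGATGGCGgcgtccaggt
Mrpl42, chr10:95501904-95501933, minus strand: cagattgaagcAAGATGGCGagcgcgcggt
Mrpl27, chr11:94653788-94653817, plus strand: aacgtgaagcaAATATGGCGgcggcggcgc
Mrpl58, chr11:115403761-115403790, plus strand: cctgggaggtgAACATGGCGaccgcctggg
Mrpl36, chr13:73330967-73330996, plus strand: acgtgaccttaCGCCATCTTtcttcctggc
Mrps11, chr7:78783012-78783041, plus strand: cctacgggcgcCGCCATCTTtctgtcttcc
Mrps18a, chr17:46111004-46111033, plus strand: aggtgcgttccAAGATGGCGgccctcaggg
Mrps24, chr11:5707652-5707681, minus strand: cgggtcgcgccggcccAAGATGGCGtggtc
Mrps27, chr13:99344789-99344818, plus strand: tggtgcgctccAAGATGGCGgctcccatgg
Mrps30, chr13:118387219-118387248, minus strand: cgcggcgggcgAAAATGGCGgcggccaggt

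In 9 of the 11 the motif lay on the strand of the gene and began 9 to 37 bases into the transcript, and in 7 of these its ATG was an annotated start codon. In Mrpl36 and Mrps11 it lay on the other strand, before the start. The members with the motif had a median log2 fold change of 0.069 and those without it 0.13. At an unadjusted p under 0.05 were 3 of the 11 with the motif, Mrpl35, Mrps11 and Mrps18a, all higher, and 10 of the 58 without it. Among tested genes with a window, 18.1% of the 590 with the motif had such a p, 46 higher and 61 lower, and 10.2% of the 8986 without it. Mrps2, Mrps10, Mrps18b and Mrpl45 held no match in their windows. The shorter form AANATGG, which includes every match of the longer one, was found in 33.3% of the members, 17.8% of the tested genes with a window and 18.2% of all genes with one.

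Motifs of 2 other factors of mitochondrial gene promoters were counted the same way. The ETS motif CCGGAAG, bound by GABP and relatives, was found in 37.7% of the members against 20.7% of the tested genes with a window and 9.93% of all genes with one. The NRF1 motif GCATGCGC was found in 11.6% of the members, 6.18% of the tested genes with a window and 3.05% of all genes with one. A start site of another coding gene on the opposite strand within 1000 bases was annotated for 33 of the 78 members (42.3%), against 17% of 11574 coding genes tested. Mrpl46 and Mrps11 form such a pair with each other, and since their annotated loci overlap at the start, reads there may belong to either. Their log2 fold changes were 0.38 and 0.26.

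Another 6 genes encode proteins of the mitochondrial ribosome or its membrane anchor but have other symbols. Oxa1l, the insertase that receives new proteins from the ribosome, stood at 26.7, 23.7 and 21.1 CPM in YY1 siRNA samples 4, 5 and 6, against 29.0, 31.6 and 29.7 CPM in control siRNA samples 1, 2 and 3. The groups did not overlap (log2 fold change -0.33, edgeR adjusted p 0.261, SE 0.094). Chchd1, a small subunit protein, stood at 40.6, 43.3 and 67.6 CPM in YY1 siRNA samples 4, 5 and 6, against 30.5, 35.3 and 41.0 CPM in control siRNA samples 1, 2 and 3, where sample 6 was again the highest (log2 fold change 0.50, edgeR adjusted p 0.451, SE 0.207). Aurkaip1 averaged 48.7 ± 7.39 CPM in YY1 siRNA samples and 43.5 ± 2.74 CPM in control siRNA samples. The list's median log2 fold change was 0.095, with 1 gene higher and 1 lower at an unadjusted p under 0.05. For this list and those below, the shares over all genes tested were 5.38% higher and 5.46% lower at that p.

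Genes that build the mitochondrial ribosome or modify its RNA had a median log2 fold change of 0.0036 over 31 genes, of which 1 was higher and 0 lower at an unadjusted p under 0.05. That gene was Fastkd2, an RNA-binding protein of large subunit assembly, at 22.4, 26.3 and 32.1 CPM in YY1 siRNA samples 4, 5 and 6, against 19.0, 19.8 and 21.6 CPM in control siRNA samples 1, 2 and 3 (log2 fold change 0.41, edgeR adjusted p 0.265, SE 0.120). Malsu1, which acts in large subunit assembly, averaged 33.1 ± 7.93 CPM in YY1 siRNA samples and 27.4 ± 3.12 CPM in control siRNA samples. Trmt61b, a methyltransferase, averaged 2.76 ± 0.491 CPM in YY1 siRNA samples and 2.20 ± 0.514 CPM in control siRNA samples.

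The median log2 fold change of 16 mitochondrial translation factors was 0.035, and 1 was higher and 2 lower at an unadjusted p under 0.05. Lrpprc, which stabilises mitochondrial mRNAs, stood at 37.3, 38.9 and 34.1 CPM in YY1 siRNA samples 4, 5 and 6, against 43.5, 41.5 and 44.7 CPM in control siRNA samples 1, 2 and 3 (log2 fold change -0.23, edgeR adjusted p 0.318, SE 0.076). The elongation factor gene Gfm1 stood at 47.0, 45.1 and 44.4 CPM in YY1 siRNA samples 4, 5 and 6, against 54.1, 52.0 and 50.8 CPM in control siRNA samples 1, 2 and 3 (log2 fold change -0.20, edgeR adjusted p 0.348, SE 0.069). Neither gene's groups overlapped. Mtfmt, the formyltransferase of the initiator tRNA, averaged 16.9 ± 1.85 CPM in YY1 siRNA samples and 14.4 ± 0.565 CPM in control siRNA samples.

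Of 9 genes of mitochondrial transcription and DNA maintenance, 0 were higher and 2 lower at an unadjusted p under 0.05. Polrmt, the mitochondrial RNA polymerase, averaged 21.4 ± 0.479 CPM in YY1 siRNA samples and 25.1 ± 1.35 CPM in control siRNA samples (log2 fold change -0.22, edgeR adjusted p 0.362). Mgme1, an exonuclease, averaged 9.38 ± 1.14 CPM in YY1 siRNA samples and 11.5 ± 0.944 CPM in control siRNA samples, and the transcription elongation factor gene Tefm 9.88 ± 2.43 CPM in YY1 siRNA samples and 8.25 ± 1.22 CPM in control siRNA samples. Of 11 tested nuclear regulators of mitochondrial genes, 3 were higher and 0 lower at that p, against 5.38% and 5.46% of all genes tested. Hcfc1, a partner of YY1 and of GABP, averaged 148 ± 14.8 CPM in YY1 siRNA samples and 114 ± 3.81 CPM in control siRNA samples (log2 fold change 0.38, edgeR adjusted p 0.147). Gabpb2, a GABP subunit, averaged 88.0 ± 8.60 CPM in YY1 siRNA samples and 69.5 ± 3.42 CPM in control siRNA samples. The nuclear receptor gene Esrra averaged 62.6 ± 1.70 CPM in YY1 siRNA samples and 55.3 ± 1.82 CPM in control siRNA samples. None passed after adjustment with the edgeR settings used throughout. Hcfc1 passed without the filter on low counts (adjusted p 0.0115), with DESeq2 (0.0389) and with length and GC offsets (0.00664). Gabpb2 passed without that filter (0.0308) and without YY1 siRNA sample 4 (0.0494). More genes passed in these settings than in the main fit, where Yy1 alone did. They were 83 of 17048 without the filter, 19 of 17046 with DESeq2 and 15 of 12148 with the offsets. Without YY1 siRNA sample 4 they were 41 of 12239. The mRNAs of the mitochondrial genome are not analysed here.

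Sample 6 was also the highest library for the cytosolic ribosome and for respiratory complex I. The level of cytosolic large subunit genes was 0.0094, -0.099 and 0.37 in YY1 siRNA samples 4, 5 and 6, against -0.20, -0.090 and 0.021 in control siRNA samples 1, 2 and 3. For complex I subunits it was -0.013, -0.071 and 0.32 in YY1 siRNA samples 4, 5 and 6, against -0.14, -0.11 and 0.046 in control siRNA samples 1, 2 and 3. The median log2 fold changes were 0.18 for 45 cytosolic large subunit genes, 0.27 for 31 cytosolic small subunit genes and 0.18 for 36 complex I genes. Without sample 6 they were 0.036, 0.045 and 0.027. At an unadjusted p under 0.05 were 0 of the cytosolic genes and 6 of the 36 complex I genes, all higher. Of all genes tested, 5.38% were higher and 5.46% lower at that p. In these lists, as in both mitochondrial subunits, sample 6 was the highest and control siRNA sample 1 the lowest library. No difference between the lists was tested.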

How the data were processed

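RNA-seq of 6 KMWT1 samples was analysed from 1 table per sample of raw read counts per gene symbol, as deposited. STAR 2.6.1a, edgeR 3.30.0 and build mm10 are named per the submitters' processing notes; of the counting program, annotation and strand setting nothing is given in the sources used here. Rows that name no gene (7.87% to 11.3% of counts in no gene, 1.01% to 1.15% ambiguous) were left out. The test was edgeR 4.0.16 (R 4.3.3), quasi-likelihood, two-sided, with filterByExpr, TMM and robust estimation, fitted to all genes, with Benjamini-Hochberg adjustment over all 12148 genes tested and a threshold of 0.05. Alternatives were RLE, library size alone, other filters, no robust estimation, DESeq2 1.42.0, limma-voom (limma 3.58.1), length and GC offsets (mgcv 1.9.3) and each sample left out. Every pair of samples differed by more than sampling noise (chi-square over its degrees of freedom 3.04 to 47.7). Lengths, GC content, overlaps and copies came from GENCODE M21 on mm10, which matched 98.0% of symbols. Promoter windows came from RefSeq; Mrpl4, Mrpl13, Mrpl15, Mrpl19, Mrpl38, Mrpl54, Mrps28, Mrps34 and Mrps35 had none there. The fit was tested on simulated counts of 12148 genes, some given a change of 1.25-, 1.5- or 2-fold. It recovered 13.5%, 76% and 92.5% of these changes, with 7, 20 and 21 false calls. Changes near 1.25-fold were thus mostly missed in the simulated counts. Each gene was drawn independently, so no simulated library held a shift shared by many genes like that of YY1 siRNA sample 6. The shares recovered and the false calls can therefore differ in the real counts.

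Members and lists were chosen with earlier results of these data known. Genes named are Yy1, members with an unadjusted p under 0.05 or non-overlapping groups and a log2 fold change past 0.25, the 3 highest and lowest per length and the 2 largest changes each way per subunit, the Mrps18 paralogs, and up to 3 genes of each other list by p. At 3 counts a library's floor was 0.145 to 0.191 CPM, for counting error only. The result of 1 cell type marker is not reported here.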

Additional observations from a re-analysis of the deposited data

Results flagged for a closer look

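Counts that fell in no gene, which enter no comparison, made up 10.7% of YY1 siRNA sample 5 and 11.3% of sample 6 of that group, against 7.99% to 9.03% in the control siRNA samples. Among the libraries, sample 6 had the highest levels of both subunits, while the large subunit level of sample 5 was -0.084 and its small subunit level -0.064. YY1 siRNA sample 4, with 7.87%, lay below the controls in this share.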

How the results depend on the processing

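No paired analysis was run, since samples are numbered 1 to 6 across the groups and the labels give no pairing. The fall of Yy1 passed in every setting run (log2 fold change -0.71 to -0.64, and -0.70 to -0.67 without each sample). No member of either subunit passed after adjustment in any setting run. The 21 members named for their change kept their direction in all 294 refits, with a lowest adjusted p of 0.0685. They were named from the same samples that the refits share, so a kept direction is not independent support. With length and GC offsets Mrps21 and Mrps18a had an unadjusted p of 0.423 and 0.115 (edgeR). Subunit medians stayed above 0: 0.044 to 0.12 in the large and 0.056 to 0.12 in the small subunit, and 0.015 to 0.21 and 0.058 to 0.18 without each sample, lowest in both without YY1 siRNA sample 6. Large subunit genes at an unadjusted p under 0.05, 6 in the main settings, numbered 10 without robust estimation (11.3% of all genes) and 12 with length and GC offsets (9 higher, 3 lower; 13.9% of all genes), and 2 to 11 without each sample, with 2 without control siRNA sample 2 (6.38% of all genes) and 11 without control siRNA sample 3 (11.3%). Small subunit genes, 10 in the main settings, numbered 6 with DESeq2 (5.53% of the genes it tested, with no filter on low counts). They numbered 4 to 12 without each sample, with 4 when control siRNA sample 1 (5.40% of all genes) and 6 when YY1 siRNA sample 6 (8.20%) was left out. What causes these changes was not tested. Levels per kilobase with the longest transcript, an alternative added after the data were seen, were 108 for Mrpl30, 63.3 for Mrps21 and 52.5 for Mrps18c. Median standard errors of 0.108 and 0.0956 (log2) limit what single members of the large and small subunit can show.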
